A study of Mus musculus with 2 samples.

Results

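The cells described here are the mitotic-high cells of mouse induced pluripotent stem cells (iPSCs): in each of 2 single-cell libraries, the 20% of cells with the largest share of their RNA counts in 8 genes of the G2 phase and mitosis (Ccnb1, Cdc20, Plk1, Cenpe, Cenpf, Aurka, Tpx2 and Ccna2). There were 246 such cells, 145 of 727 usable wild-type (WT) cells and 101 of 506 usable knockout (KO) cells, out of 2027 deposited cells in all. The comparison group was the 20% of cells with the smallest share in the same library, again 145 WT and 101 KO cells, called mitotic-low below. Members were chosen by their measured UMIs of these 8 genes over all UMIs of the cell. The class is a range on a per-cell score, not a cell type, and the 8 genes define it, so their difference between the groups is a description only.

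The study set iPSCs lacking serum response factor (SRF, a transcription factor that controls actin cytoskeleton and growth-factor-induced genes) beside control iPSCs. The KO cells were labelled SRFΔ/Δ and the WT cells SRFf/f, so the WT line carries the floxed Srf alleles unrecombined. Both were grown in serum-containing medium, with no further agent in the labels, and captured on the 10x Genomics Chromium platform. The labels give 1 library per genotype and name neither the number of clones, nor a batch, nor feeder cells. No value below therefore has a replicate check, no test was made, and a KO against WT difference is a difference between 2 libraries.

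Counts are unique molecular identifiers (UMIs, each standing for 1 captured RNA molecule), summed over the cells of a group and given as counts per 1000000 UMIs (CPM). A log2 ratio compares 2 such sums. Intervals are 95% exact Poisson intervals for a CPM and exact binomial intervals for a ratio, and cover counting error only. Usable cells had a median of 28677 UMIs in WT (15038 to 65395) and 26597 in KO (15049 to 67619), and 76.2% of the deposited WT cells and 47.2% of the deposited KO cells were usable. The 2 libraries shared 2 barcodes. Srf had 42 UMIs in WT mitotic-high cells (9.0 CPM, 6.49 to 12.2) and 0 of 2926734 UMIs in KO mitotic-high cells. With 3 counts as the limit for a count of 0, this allows up to 1.03 CPM. The WT level of 9.0 CPM was 8.78 times that limit. The exact Poisson interval of the 0 reaches 1.26 CPM. All usable cells held 186 Srf UMIs in WT and 3 in KO. The labels do not say which part of Srf was deleted. The pluripotency factor Pou5f1 stood at 789 CPM in WT and 727 CPM in KO mitotic-high cells, so both sets carried the labelled iPSC identity by that gene.

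A dividing cell copies its DNA in S phase, grows through G2, and then separates the copies in mitosis. Cyclins A2 and B1 activate the kinase Cdk1, which starts mitosis, while Plk1 and Aurora A (Aurka) build the spindle with the help of Tpx2. Cenpe and Cenpf link chromosomes to spindle microtubules, and Cdc20 switches on the anaphase-promoting complex (APC/C), the ubiquitin ligase that marks cyclin B1 for destruction by the proteasome. Pluripotent stem cells have short gap phases, so many of them are in S, G2 or M at any time. Transcripts of G2 and M genes build up gradually, and many of their promoters hold CCAAT boxes and the element known as the cell cycle genes homology region.

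The promoters of the 6 score genes with an entry and of the 4 other cell cycle genes with the highest ratios (Nusap1, Ube2c, Cdk1 and Arl6ip1) are shown, so that those with and without these letters can be compared. The 120 bases before the annotated start are from RefSeq, build GRCm38.p6, written 5′ to 3′ on the gene's strand. Capitals mark CCAAT or its reverse complement ATTGG, and for the homology region the letters TTTGAA, on the other strand TTCAAA, and the palindrome TTCGAA.
Ccnb1, chr13:100786487-100786606, minus strand: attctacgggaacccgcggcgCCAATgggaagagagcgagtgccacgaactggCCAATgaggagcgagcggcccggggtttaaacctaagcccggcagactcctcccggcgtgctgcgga
Cdc20, chr4:118437344-118437463, minus strand: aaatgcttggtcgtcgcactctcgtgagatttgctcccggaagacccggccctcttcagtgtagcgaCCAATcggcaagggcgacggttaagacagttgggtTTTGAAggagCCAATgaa
Plk1, chr7:122159315-122159434, plus strand: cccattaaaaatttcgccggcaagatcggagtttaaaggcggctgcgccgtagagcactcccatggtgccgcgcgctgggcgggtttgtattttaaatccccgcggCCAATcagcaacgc
Cenpe, chr3:135212443-135212562, plus strand: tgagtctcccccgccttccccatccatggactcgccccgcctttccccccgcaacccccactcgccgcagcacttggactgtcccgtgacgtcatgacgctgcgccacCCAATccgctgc
Cenpf, chr1:189688087-189688206, minus strand: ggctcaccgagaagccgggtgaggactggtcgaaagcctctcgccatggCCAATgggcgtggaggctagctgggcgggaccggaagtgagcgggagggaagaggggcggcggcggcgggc
Aurka, chr2:172370571-172370690, minus strand: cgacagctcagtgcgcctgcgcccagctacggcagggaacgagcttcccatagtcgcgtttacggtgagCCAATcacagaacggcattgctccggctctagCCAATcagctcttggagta
Nusap1, chr2:119618178-119618297, plus strand: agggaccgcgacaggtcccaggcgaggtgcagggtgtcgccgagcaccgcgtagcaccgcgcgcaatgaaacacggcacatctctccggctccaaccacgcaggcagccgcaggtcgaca
Arl6ip1, chr7:118129626-118129745, minus strand: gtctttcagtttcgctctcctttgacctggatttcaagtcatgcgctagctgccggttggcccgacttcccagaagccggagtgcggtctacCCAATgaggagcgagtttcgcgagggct
Cdk1, chr10:69352913-69353032, minus strand: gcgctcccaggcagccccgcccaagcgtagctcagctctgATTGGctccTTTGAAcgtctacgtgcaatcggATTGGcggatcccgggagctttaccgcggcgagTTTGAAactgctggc
Ube2c, chr2:164769809-164769928, plus strand: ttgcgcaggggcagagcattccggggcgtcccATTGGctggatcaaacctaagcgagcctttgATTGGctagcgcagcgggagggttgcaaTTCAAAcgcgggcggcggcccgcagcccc

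In Ccnb1, Aurka and Cdk1 the starts of the pair of CCAAT letters were 32 bases apart, in Ube2c 31 and in Cdc20 45. Over a window from 120 bases before to 50 after the start, all 6 score genes with a promoter entry held CCAAT and 4 held a homology-region match, which in Plk1, Cenpf and Aurka lay after the start and so outside the letters shown. Ccnb1, Cenpe and Arl6ip1 held CCAAT and no homology-region match, and Nusap1 held neither. Tpx2 and Ccna2 had no entry. Of 90 mitotic genes outside the score with an entry, 63.3% held CCAAT, 56.7% a homology-region match and 41.1% both. The shares were 33.2%, 8.04% and 3.03% over 4816 genes measured in both libraries and 28.7%, 11.4% and 3.06% over all 27025 genes of the table. S-phase genes with an entry (33) held CCAAT at 63.6% but a homology-region match at only 9.09%. These are matches of letters, which is a description and not evidence of binding.

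The score separated the groups by its construction. Mitotic-high cells had a median score of 1261 CPM in WT, against 386 in mitotic-low cells. The KO medians were 1326 and 440. The lowest WT member scored 1069 and the cell just below it 1068. In KO these 2 cells scored 1151 and 1149. Within 10% of the cut lay 109 WT cells, 49 of them members, and 81 KO cells, 38 of them members, so many cells sat next to the boundary. A WT member carried 19 to 118 raw score UMIs and a KO member 20 to 96. Choosing cells on counts also picks chance excess. When the UMIs of each cell were split at random, the summed score was 4.51-fold (WT) and 4.79-fold (KO) higher in members on the UMIs that chose them, and 2.47-fold and 2.18-fold higher on the remaining UMIs.

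Among the low cells some carried RNA of another kind. Cells with at least 5 UMIs over 13 fibroblast markers numbered 2 of 145 WT and 3 of 101 KO mitotic-high cells, but 7 WT and 13 KO mitotic-low cells. The summed marker level was 32.4 CPM in WT and 40.7 CPM in KO mitotic-high cells, and 245 and 1095 CPM in the low cells. In the members 6 of the 13 markers had UMIs in WT and 7 in KO. Col1a2, Col3a1, Col6a1, Postn, Dcn and Lum were at 0 in the members of both libraries. The 13 KO low cells held 66.0 CPM of Pou5f1, against 739 in the other 88, and 0 Srf UMIs, which allows up to 8.61 CPM. That limit is above the 8.30 CPM of Srf in all WT mitotic-low cells, so the 0 does not separate the 2 by Srf level. The 7 WT low cells held 5 Srf UMIs, 28.3 CPM (9.18 to 66.0). The 13 KO cells supplied 97.2% of the KO low group's fibroblast-marker UMIs and 48.6% of its UMIs over SRF-target cytoskeletal genes. Results were therefore also computed without these cells, with the members ranked again, and both values are given for many results below. Unless stated otherwise, a value given once is from all usable cells. Without the fibroblast-marker cells the marker level was 30.6 and 33.4 CPM in WT high and low cells, and 35.4 CPM in each KO group.

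**Figure D1:**
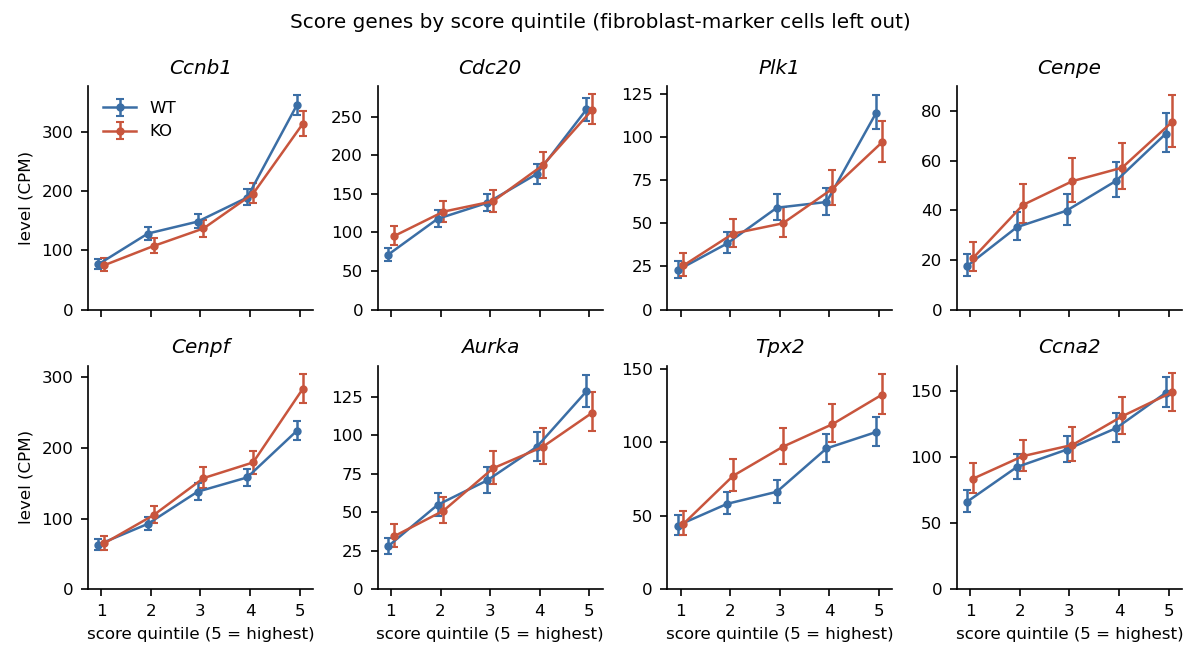
Levels of the 8 score genes (CPM of summed UMIs) across the 5 score quintiles of each library, with 95% Poisson intervals. Quintile 5 holds the mitotic-high cells and quintile 1 the mitotic-low cells. Fibroblast-marker cells are left out; every gene was highest in the quintile that the score chose, and Ccnb1 ran from 76.1 to 344 CPM in WT and from 74.7 to 313 CPM in KO.

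Ccnb1, the cyclin that drives entry into mitosis, gave the most score UMIs, 24.8% in WT and 21.6% in KO members. It stood at 348 CPM in WT mitotic-high and 73.2 in WT mitotic-low cells, and at 306 and 66.9 CPM in KO. Across the WT quintiles it went 73.2, 128, 149, 187 and 348 CPM, with the widest step into the top quintile. Cells were ranked partly on Ccnb1 itself, so this shape is a description only. Cdc20, the APC/C activator, stood at 261 against 69.0 CPM in WT and 258 against 83.5 CPM in KO. The mitotic kinase Plk1 was at 114 against 21.1 CPM in WT and 95 against 22.2 CPM in KO. Aurka, the spindle-pole kinase, was at 128 against 27.9 CPM in WT and 112 against 29.9 CPM in KO. Within members the KO to WT log2 ratios of Cdc20, Plk1 and Aurka were -0.01, -0.26 and -0.19. The interval of Plk1 was -0.48 to -0.05, and those of Cdc20 and Aurka held 0. Members were chosen on these same UMIs, so KO to WT ratios of score genes within members are a description only.

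The spindle assembly factor Tpx2 was at 107 against 42.0 CPM in WT and 136 against 38.4 CPM in KO. Its log2 ratio of KO to WT within mitotic-high cells was 0.34 (0.15 to 0.53). For Cenpf, a kinetochore protein made in G2, the levels were 224 against 62.9 CPM in WT and 285 against 59.5 CPM in KO, a KO to WT log2 ratio of 0.35 (0.22 to 0.48) within members. Ccnb1 lay on the other side within members, with a KO to WT log2 ratio of -0.19 (-0.31 to -0.07). The score totals, on which members were chosen, were alike at 1402 CPM in WT and 1415 CPM in KO members. The KO to WT ratios of single score genes are therefore not independent of each other. Cenpe, the kinetochore motor, was at 70.9 against 16.9 CPM in WT and 77.9 against 18.5 CPM in KO. Ccna2, the cyclin of S phase and G2, had the smallest ratio of the 8, at 150 against 62.9 CPM in WT and 144 against 70.2 CPM in KO.

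On UMIs not used for choosing the cells, all 8 genes were still higher in members of both libraries. Plk1 had log2 ratios of 1.78 in WT and 1.33 in KO, and Ccnb1 had 1.60 and 1.5. Ccna2 was lowest, with 0.63 in WT and 0.42 in KO.

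**Figure D2:**
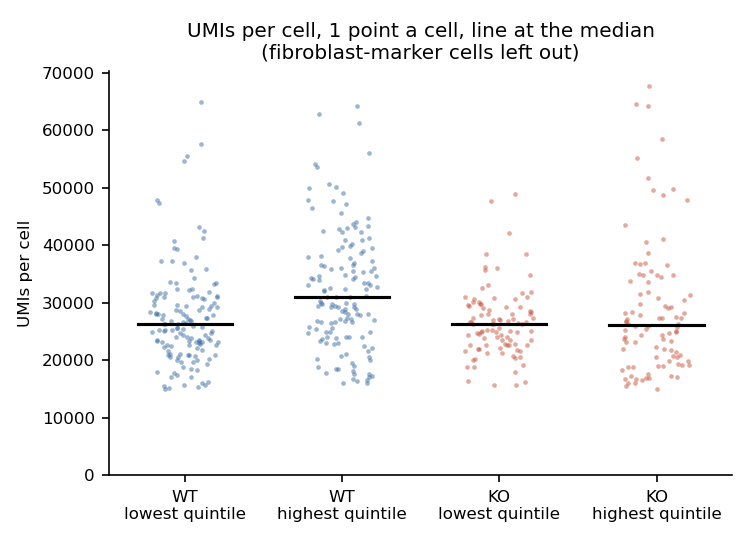
UMIs per cell for mitotic-low and mitotic-high cells of each library (lowest and highest score quintile), 1 point per cell with a line at the median, without fibroblast-marker cells. The medians were 26215 and 30952 UMIs in WT low and high cells, and 26233 and 26102 in KO.

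With all usable cells, the median depth was 30952 UMIs in WT members against 26349 in WT low cells, and 26314 against 26269 in KO. By the median WT members were thus deeper and KO members were not. The spread was wider in KO members, with quartiles of 20724 and 34531 UMIs against 22578 and 29810 in KO low cells. After thinning every cell to 15000 UMIs, members still had more genes, with medians of 3280 against 3126 in WT and 3369 against 3248 in KO. The mitochondrial share was slightly lower in members, at medians of 3.30% against 3.52% in WT and 4.03% against 4.4% in KO. Ribosomal protein genes took 36.7% of member UMIs against 39.2% of low-cell UMIs in WT, and 36.2% against 38.0% in KO. The part of depth and of these shares in the gene differences was not tested.

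Across all genes of at least 10 CPM outside the score, 403 of 6422 WT genes (6.28%) were at least 1.5-fold higher in mitotic-high than in mitotic-low cells and 126 (1.96%) at least 1.5-fold lower. In KO 533 of 6693 genes (7.96%) were higher and 413 (6.17%) lower. Without the fibroblast-marker cells the counts were 408 (6.42%) and 69 (1.09%) in WT and 467 (7.19%) and 109 (1.68%) in KO. That setting left out 26 KO cells, 13 of them mitotic-low and 3 mitotic-high, and ranked the rest again. The median gene lay at a log2 ratio of 0.09 in WT and 0.11 in KO, and list medians below are to be read against that shift. Scaling by the median of gene ratios removed it and changed the split to 239 higher and 195 lower in WT (55.1% higher, against 76.2%) and to 315 and 528 in KO (37.4%, against 56.3%). With totals lacking mitochondrial and ribosomal genes it was 278 and 168 in WT (62.3%) and 415 and 455 in KO (47.7%). Several counts moved under other cell choices, as given with the processing alternatives.

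Mitotic genes that the score did not use went with it. Of 115 such genes, 105 were measured in WT and 52 of them were at least 1.5-fold higher in members. In KO 57 of 102 were higher and 2 lower, and 42 genes were higher in both. The median log2 ratio was 0.53 in WT and 0.63 in KO. Without fibroblast-marker cells it was 0.54 and 0.52, with 47 of 105 and 44 of 105 genes higher. These counts share their cells with the rule, so the background percentages above are given for scale only.

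**Figure D3:**
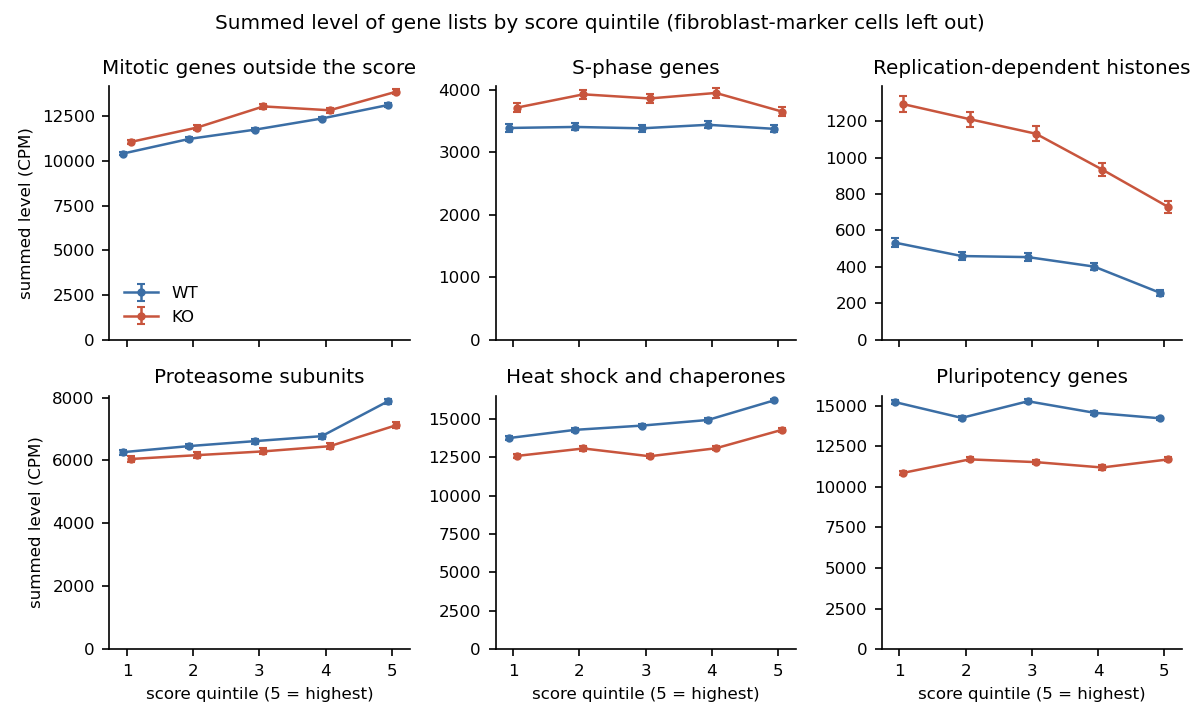
Summed levels (CPM) of 6 gene lists across the score quintiles of each library, with 95% Poisson intervals, without fibroblast-marker cells. Mitotic genes outside the score ran from 10407 to 13122 CPM in WT and from 11060 to 13864 CPM in KO, while S-phase genes ran from 3393 to 3379 and from 3720 to 3655 CPM.

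Among the lists of mitotic genes outside the score, spindle motors and microtubule-binding proteins had the highest median. It was 0.80 in WT and 0.95 in KO (0.79 and 0.75 without fibroblast-marker cells). At least 1.5-fold higher were 21 of 28 genes in WT and 22 of 28 in KO, and 18 in both. Nusap1, which bundles spindle microtubules near chromosomes, stood at 110 against 34.2 CPM in WT and 112 against 24.8 CPM in KO, log2 ratios of 1.68 (1.41 to 1.97) and 2.17 (1.80 to 2.58). Arl6ip1, a membrane-shaping protein of the endoplasmic reticulum on this list, was at 298 against 124 CPM in WT and 308 against 99.4 CPM in KO. The spindle protein Hmmr was at 102 against 34.2 CPM in WT and 105 against 42.1 CPM in KO. The tubulin gene Tuba1c stood at 108 against 37.2 CPM in WT and 90.9 against 41.4 CPM in KO. Within members the log2 ratios of KO to WT were 0.03 to 0.04 for Nusap1, Arl6ip1 and Hmmr, and -0.25 (-0.47 to -0.04) for Tuba1c.

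The list of kinases, cyclins and their regulators had medians of 0.63 in WT and 0.67 in KO, with 13 of 23 and 13 of 22 genes at least 1.5-fold higher. Without fibroblast-marker cells the medians were 0.57 and 0.58, with 11 of 23 and 10 of 23 genes higher. Cdk1, the kinase that cyclin B1 activates, stood at 174 against 73.7 CPM in WT and 162 against 49.9 CPM in KO, with log2 ratios of 1.24 (1.04 to 1.44) and 1.70 (1.42 to 1.99). The chromosomal passenger kinase Aurkb had log2 ratios of 1.31 and 1.15, and its partner Incenp 1.15 and 1.37. Other members of the machinery were less graded: the survivin gene Birc5 had 0.38 and 0.45, and the cyclin Ccnb2 0.63 and 0.30. Wee1, the kinase that holds Cdk1 inactive, was on the other side, at 36.4 against 46.8 CPM in WT and 31.4 against 41.4 CPM in KO. Cdk1 and Wee1 were named as among the highest and lowest of this list, so their contrast follows from that choice. In the list 19 of 23 genes in WT and 21 of 22 in KO lay above 0.

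Among genes of the APC/C and its substrates the median was 0.18 in WT and 0.21 in KO, near the all-gene median, with 2 and 4 of 21 genes at least 1.5-fold higher. Without fibroblast-marker cells the medians were 0.15 and 0.23, with 2 of 21 genes higher in each library. Anapc11, a core subunit, was at 197 against 220 CPM in WT and 194 against 215 CPM in KO. Ube2c, the ubiquitin-conjugating enzyme that works with the complex, stood at 539 against 202 CPM in WT and 489 against 148 CPM in KO, with log2 ratios of 1.41 (1.30 to 1.53) and 1.72 (1.56 to 1.89). The late activator Fzr1 was at 72.7 against 36.7 CPM in WT and 73.1 against 34.0 CPM in KO. The inhibitor Fbxo5 had log2 ratios of 0.57 and 0.38. Ube2c and Fzr1 were named from the high end of the list and Anapc11 from the low end, so Anapc11 does not stand for the other subunits. Over the list 16 of 21 genes in WT and 18 of 21 in KO lay above 0.

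Kinetochore and centromere genes had medians of 0.50 in WT and 0.55 in KO, with 11 of 28 and 12 of 26 genes at least 1.5-fold higher. Without fibroblast-marker cells the medians were 0.48 and 0.43, with 11 of 28 and 10 of 28 genes higher. The outer-kinetochore scaffold Casc5 was at 16.1 against 7.30 CPM in WT and 23.2 against 7.76 CPM in KO. Sgol2a, which protects centromeric cohesion, had log2 ratios of 0.93 in WT and 1.92 in KO, the KO value being 1.27 without fibroblast-marker cells. Ska2, which helps kinetochores hold microtubules, had 1.24 and 1.01. Cenpm, a constitutive centromere protein, had 0.09 and -0.05, so the list was uneven.

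Chromosome condensation genes had medians of 0.27 and 0.50 (0.24 and 0.38 without fibroblast-marker cells), with 5 of 14 genes at least 1.5-fold higher in each library. The condensin subunit Smc4 stood at 208 against 117 CPM in WT and 153 against 84.6 CPM in KO. Ncaph, another condensin subunit, had log2 ratios of 0.86 and 0.91, and the chromosome-coating protein Mki67 had 0.72 and 1.14. The histone variant H2afz, at 3079 against 3156 CPM in WT and 3440 against 3200 CPM in KO, was level. Cohesin genes had medians of 0.22 and 0.32 and nuclear envelope genes 0.18 and 0.24. In WT 0 genes of either list were at least 1.5-fold higher, and in KO 2 of 12 cohesin genes were higher, with 1 of 15 nuclear envelope genes higher and 1 lower. Without fibroblast-marker cells the medians were 0.14 and 0.26 for cohesin genes and 0.19 and 0.10 for nuclear envelope genes.

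Cytokinesis genes had medians of 0.44 in WT and 0.61 in KO, with 5 and 8 of 15 genes at least 1.5-fold higher and 2 lower in KO. Without fibroblast-marker cells the medians were 0.35 and 0.40. Kif23, the motor of the central spindle, was at 45.0 against 19.1 CPM in WT and 36.6 against 18.1 CPM in KO. Its partner Racgap1 had log2 ratios of 1.09 and 0.80, and the microtubule bundler Prc1 0.77 and 1.27. Rhoa, the small GTPase that drives the contractile ring, was level at 0.13 and -0.06.

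Genes of the preceding phase did not go with the score in WT, nor in KO once fibroblast-marker cells were left out. With all usable cells, 2 of 42 S-phase genes in WT and 4 of 42 in KO were at least 1.5-fold higher. The all-gene shares were 6.28% and 7.96%, and the all-gene medians 0.09 and 0.11. S-phase genes had medians of 0.05 in WT and 0.24 in KO, and -0.00081 and 0.025 without fibroblast-marker cells, with 2 of 42 genes at least 1.5-fold higher in each library in the latter case. Mcm3, a subunit of the replicative helicase, was at 105 against 95.1 CPM in WT and 132 against 77.2 CPM in KO. Its difference between the KO and WT log2 ratios was 0.64 (0.33 to 0.95), and 0.52 without fibroblast-marker cells. The uracil-DNA glycosylase Ung had log2 ratios of -0.34 and -0.36, and Wdr76 -0.51 and -0.68. Tyms, which makes the thymidine nucleotide, was at 88.7 against 52.3 CPM in WT and 56.4 against 62.8 CPM in KO, a KO minus WT difference of -0.92 (-1.31 to -0.52). Tyms was thus higher in WT members than in WT low cells, with no such difference in KO beyond counting error.

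Replication-dependent histones, a list chosen after values were seen, were lower in members. Their summed level was 256 against 534 CPM in WT and 700 against 1276 CPM in KO. Without fibroblast-marker cells it was lower at each step up the score, from 532 through 459, 453 and 401 to 256 CPM in WT and from 1295 through 1212, 1132 and 935 to 729 CPM in KO. Hist1h2ap, an H2A gene of the multigene cluster, was at 121 against 297 CPM in WT and 555 against 938 CPM in KO. Within members it was higher in KO by a log2 ratio of 2.20 (2.06 to 2.34). Histone genes of a cluster are near-identical and their messages mostly lack a poly(A) tail, so single-gene values are uncertain.

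G1 cyclins, Cdk inhibitors and p53 targets had medians of -0.26 in both libraries, and 0.12 in WT and -0.19 in KO without fibroblast-marker cells. Cdkn1a, the Cdk inhibitor induced by p53, was at 98.8 against 118 CPM in WT and 90.2 against 222 CPM in KO. Without fibroblast-marker cells its log2 ratios were 0.38 in WT and -0.38 in KO, a difference of -0.76 (-1.08 to -0.44). Ccng1, another p53 target, differed likewise, with 0.21 in WT and -0.56 in KO without those cells. Transcription factors of the cell cycle had medians of -0.01 and 0.07, and -0.04 and -0.06 without fibroblast-marker cells.

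**Figure D4:**
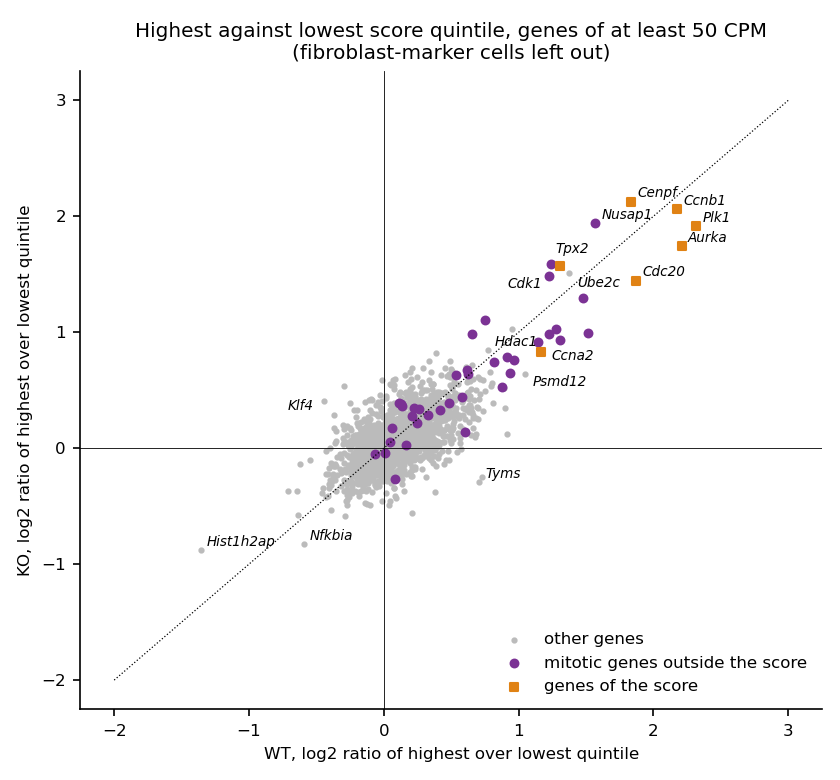
Log2 ratio of mitotic-high to mitotic-low cells in KO (vertical) against WT (horizontal) for genes of at least 50 CPM, 1 point per gene, without fibroblast-marker cells. Mitotic genes outside the score (circles) and the score genes (squares) lie mostly to the upper right, Klf4 lies at -0.37 in WT and 0.29 in KO, and Tyms at 0.71 and -0.29; the dotted line marks equal ratios.

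Outside the fixed lists, genes on the same side in both libraries included Hdac1 and Psmd12. Hdac1, a histone deacetylase, stood at 202 against 114 CPM in WT and 200 against 105 CPM in KO, with log2 ratios of 0.83 (0.67 to 1.0) and 0.92 (0.72 to 1.13). Across the WT quintiles it went 114, 109, 121, 146 and 202 CPM. The cyclophilin Ppid had log2 ratios of 0.86 and 0.71, and the chromatin factors Anp32a and Supt16 0.71 and 0.68, and 0.67 and 0.68. Psmd12, a subunit of the proteasome lid, was at 147 against 68.7 CPM in WT and 121 against 75.4 CPM in KO. On the low side Nfkbia, the inhibitor of NF-κB, had -0.69 and -1.16, and -0.59 and -0.82 without fibroblast-marker cells. Alkbh1, an RNA and DNA demethylase, had -0.63 and -0.57 without them. S100a6, Vim, Lgals1 and Timp1 were also lower in members of both libraries with all cells. Without the fibroblast-marker cells S100a6 lay at 0.73 in WT and -0.25 in KO, Vim at 0.08 and 0.70, Lgals1 at 0.13 and -0.13, and Timp1 at -0.06 and -0.44, so none of the 4 was at least 1.5-fold lower in either library.

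Proteasome subunits as a list, also chosen after values were seen, had medians of 0.39 in WT and 0.27 in KO over 35 measured genes, of which 10 and 1 were at least 1.5-fold higher. Without fibroblast-marker cells their sum went from 6264 to 7883 CPM in WT and from 6047 to 7118 CPM in KO, with the largest step into the top quintile. Heat shock and chaperone genes had medians of 0.42 and 0.27. The chaperonin subunits Cct8 (0.77 and 0.56) and Cct3 (0.68 and 0.56) and the endoplasmic reticulum chaperone Hsp90b1 (0.62 and 0.70) led that list. At least 1.5-fold higher were 4 of 16 chaperone genes in WT and 1 of 16 in KO. The all-gene shares were 6.28% in WT and 7.96% in KO. With all usable cells the KO counts of the proteasome and chaperone lists were not above that share. The medians of these 2 lists were smaller than those of the spindle list. They were above 0 in both libraries, as was the all-gene median (0.09 and 0.11).

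Pluripotency genes had a median of -0.09 in WT, below the all-gene 0.09, and 0.27 in KO, above the all-gene 0.11. Without fibroblast-marker cells the list lay at -0.14 in WT and 0.11 in KO, where the all-gene median was 0.10. Pou5f1 was at 789 against 828 CPM in WT and 727 against 652 CPM in KO. Klf4, a naive-state factor, was at 274 against 344 CPM in WT and 243 against 202 CPM in KO, a KO minus WT difference of 0.59 (0.40 to 0.79), and 0.66 without fibroblast-marker cells. Nanog had log2 ratios of 0.40 and 0.81, and Dppa4 0.71 and 0.60. Tbx3, another naive-state factor, had -0.76 in WT and 0.36 in KO. So 2 naive-state factors had opposite signs in the 2 libraries, a difference that no replicate checks. Pou5f1 had opposite signs only with the fibroblast-marker cells. In the other cells of these groups, not ranked again, it was at 784 against 854 CPM in WT and 724 against 739 CPM in KO. Opposite signs were not particular to these genes. Over the list 8 of 18 genes had the same sign in both libraries, and 10 of 18 without fibroblast-marker cells.

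Trophoblast markers had few measured members, and the keratins among them rested on single cells. Krt8 stood at 39.7 against 11.6 CPM in WT, but 1 cell gave 140 of its 185 UMIs in the members, 75.7%. For Krt18 1 cell gave 84 of 142 UMIs. The Krt8 UMIs of KO members came from 1 cell at 59.2%. Blood markers summed to 9.06 to 15.0 CPM and mesoderm markers to 5.91 to 10.6 CPM over the 4 groups, with Ptprc at 0 in all 4. Neuroectoderm markers lay between 29.9 and 50.2 CPM. Primitive endoderm markers, 5 of which were capped by the cell filter, summed to 92.4 CPM in WT and 146 CPM in KO members, against 116 and 345 CPM in the low cells. Without fibroblast-marker cells the low levels were 68.6 CPM in WT and 120 CPM in KO.

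**Figure D5:**
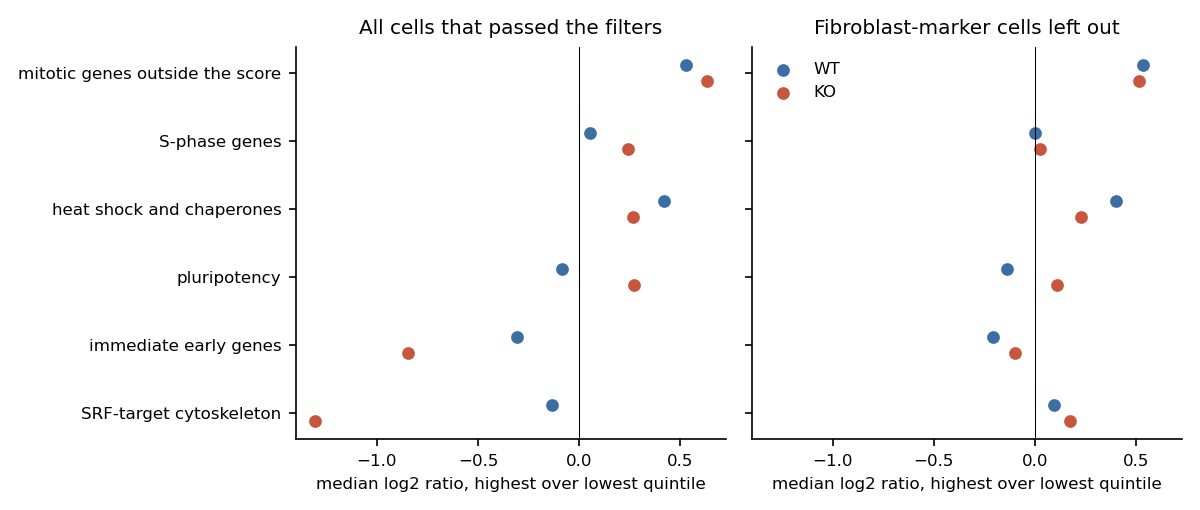
Median log2 ratio of mitotic-high to mitotic-low cells for 6 gene lists in WT and KO, with all usable cells (left) and without fibroblast-marker cells (right), on the same horizontal scale. Mitotic genes outside the score lie at 0.53 and 0.63 on the left and 0.54 and 0.52 on the right, while the SRF-target cytoskeleton moves from -1.30 to 0.17 in KO.

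The list of SRF-target cytoskeletal genes depended on the fibroblast-marker cells. Its median was -0.13 in WT and -1.30 in KO, with 14 of 20 KO genes at least 1.5-fold lower in members. Without those cells it was 0.09 and 0.17, with 0 genes lower in either library. Actg1, a cytoplasmic actin, was at 1835 against 1669 CPM in WT and 436 against 699 CPM in KO, and at 440 against 399 CPM in KO without the cells. Actb, the other cytoplasmic actin, had KO log2 ratios of -0.56 with and 0.39 without them. Immediate early genes had medians of -0.31 in WT and -0.85 in KO, and -0.21 and -0.10 without the cells.

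Set beside each other, the members of the 2 genotypes had 553 of 6599 genes (8.38%) at least 1.5-fold higher in KO and 313 (4.74%) at least 1.5-fold lower. The score genes are among those 6599. The mitotic genes outside the score were level, with a median log2 ratio of KO to WT of -0.01 and 6 genes higher and 1 lower of 107. The SRF-target cytoskeleton lay at -0.42, with 6 of 16 genes lower, and at -0.39 without fibroblast-marker cells. Actg1 was lower in KO members by a log2 ratio of -2.07 (-2.16 to -1.99) and Actb by -1.68 (-1.79 to -1.58). Fos, an immediate early gene and direct SRF target, stood at 115 CPM in WT and 9.91 CPM in KO members, a log2 ratio of -3.52 (-4.13 to -3.0). Egr1, another such gene, was at 33.0 and 2.39 CPM. The immediate early list as a whole was mixed in members, with a median of -0.28, 4 of 14 genes at least 1.5-fold lower in KO and 3 at least 1.5-fold higher. Those 3 were Myc, Atf3 and Ier3, with log2 ratios of 1.36, 0.73 and 0.65, of which Myc was named after its value was seen. Counted from 1 CPM the list's median was 0.09.

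Other genes with wide KO to WT ratios in members included Plk4, the kinase that licenses centriole duplication, at 111 CPM in KO and 34.7 CPM in WT (log2 ratio 1.67, 1.40 to 1.95). It was the widest among the mitotic genes named here and it was also higher in KO low cells, 72.4 against 32.5 CPM. Id1, a target of BMP signalling, was at 161 and 35.4 CPM. The lactate dehydrogenase subunit Ldhb had a log2 ratio of -2.24, the long noncoding RNA Lncenc1 -1.96, and the homeobox gene Rhox5 -1.80, although 1 cell gave 44 of the 67 Rhox5 UMIs of KO members. Gene models RP23-4H17.3 (2.80) and Gm10076 (1.82) were also higher in KO. Cells with a raised share of UMIs from chromosome 8, above 1.2 times the WT median, made up 50.5% of KO and 11.0% of WT members (52.5% and 5.52% of the low cells). Without such cells the KO to WT median in members was 0.05 for mitotic genes outside the score and -0.38 for the SRF-target cytoskeleton, and for immediate early genes it was -0.48 in place of -0.28.

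The KO minus WT difference of the log2 ratios, among genes of at least 50 CPM, was highest for H1f0, a linker histone, at 0.95 (0.55 to 1.34) and the noncoding RNA Snhg12 at 0.89 (0.61 to 1.17). For H1f0 the levels were 75.2 against 100.4 CPM in WT and 61.5 against 42.5 CPM in KO. Without fibroblast-marker cells the values were 0.84 and 0.85. The lowest differences with all cells were those of S100a11 (-2.68), Spp1 (-2.63) and S100a6 (-2.08), and without the fibroblast-marker cells those of Tyms (-1.0), S100a6 (-0.98) and Smu1 (-0.79). Over 6166 genes of at least 10 CPM, the WT and KO log2 ratios had a Pearson r of 0.61, and 0.42 over 6057 genes without those cells. Over 2099 genes of at least 50 CPM it was 0.65, and 0.68 over 2083 genes without those cells. These are descriptions across genes, which are not independent replicates. Of the 6166 genes, 373 were at least 1.5-fold higher in WT, 483 in KO and 137 in both, that is 36.7% of the WT and 28.4% of the KO genes. Without fibroblast-marker cells these were 366, 412 and 113 of 6057 genes. At least 1.5-fold lower were 110 in WT, 276 in KO and 58 in both, and 56, 82 and 7 without those cells.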

How the data were processed

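Single-cell RNA of 2 mouse iPSC libraries (1 SRF KO, 1 WT) was measured. The deposited values are raw UMI counts per gene and cell, which the authors made as 10x matrices. The submitters' processing notes name Cell Ranger 2.0.0, Seurat 3.1.1 and build mm10, with no role for each; further upstream filters are not given in the sources used here.

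From these counts, cells with at least 1000 genes, 1 to 10% mitochondrial UMIs, at least 15000 UMIs and at most 1 UMI over Gata6, Gata4, Dab2, Cubn and Lrp2 were kept (727 WT, 506 KO). The score, the UMIs of 8 genes over all UMIs, chose the top and lowest 20% of each library. No doublet caller was run. UMIs were summed per group. Log2 ratios had 0.5 counts added to each sum, and genes of at least 10 CPM (mean of the 2 sums compared) were counted past 1.5-fold. Score genes were left out of the counts of high against low cells but not of the KO to WT count in members. Genes with a duplicated symbol were kept in these counts, while lists and the all-gene median used the first gene of each symbol. The limit for a count of 0 is 3 counts. A KO minus WT difference has a Wald interval from the Poisson variances of the 4 sums. UMIs were split at random with probability 0.5 for the held-out values. The fibroblast-marker cells (5 or more UMIs over 13 genes) were left out as a second setting. Depth is the UMI total of each group, 2706823 to 4666351, and sets the counting intervals. Cells are not replicates, so no test or p-value was computed. GENCODE M21 held 27722 of 27998 genes (99.0%).

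The members and gene lists were chosen with earlier results of these data known, the proteasome and histone lists and the motif window after their values were seen. Named genes were the 8 score genes; up to 3 of the highest and 3 of the lowest mean ratio in each list; outside the lists, 8 genes on each side with the same sign in both libraries at 50 CPM or more; the 5 highest and 5 lowest KO minus WT differences; the 5 highest and 5 lowest KO to WT ratios in members; and Srf. The list parts of this rule were applied in both settings. Birc5, Ccnb2, Pou5f1 and the zero-level markers were added after their values were seen. Scripts used Python 3.11.15, numpy 2.4.6, scipy 1.17.1, pandas 2.3.3 and matplotlib 3.10.9, and the ratio and count steps were tested on simulated data. In all 19 alternatives were computed, covering cell choice, scaling, weighting, minimum level and score genes.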

Additional observations from a re-analysis of the deposited data

How the results depend on the processing

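There was 1 library per genotype, so no alternative was a test, and a median was counted as moved where it shifted by more than 0.1 on the log2 scale and a gene count where it changed by more than 1.5 times. These limits were set by hand, and no replicate SD exists to set them by. No paired analysis was possible because neither genotype has a second library. Of the 34 results, 28 were computed under 19 alternatives and the 6 KO minus WT differences under 17, since the alternatives with other minimum levels were not run for them. Of these 634 values, 442 stayed within the limits, 176 moved and 16 changed sign with at least 0.1 on either side of 0. At any size 73 values changed sign, 34 of them within the limits. Of the alternatives, 16 were planned and 3 were chosen after seeing the data: leaving out cells with 20 or more fibroblast-marker UMIs, and leaving out fibroblast-marker cells together with a minimum of 20000 UMIs or with median-of-ratios scaling. The median of mitotic genes outside the score was above 0 in both libraries under every alternative run. Depth limited genes below 10 CPM, where a group holds few UMIs. The cause was not tested for the values below, beyond the fewer cells or genes that an alternative itself leaves.

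Values outside the limits were as follows, medians being log2 ratios of mitotic-high to mitotic-low cells, mitotic genes those outside the score, and early genes the immediate early genes. With 10% of cells per group, WT had 868 genes higher and 332 genes lower with medians of 0.70 for mitotic genes, -0.24 for SRF-target cytoskeleton, -0.52 for early genes and 0.66 for chaperones. With 10% of cells per group, KO had 1278 genes higher and 930 genes lower with medians of 0.91 for mitotic genes, 0.40 for S-phase genes, 0.55 for pluripotency genes, -2.28 for SRF-target cytoskeleton and -1.47 for early genes. With 10% of cells per group, the KO minus WT difference was 0.22 for mitotic genes, 0.32 for S-phase genes and -1.35 for SRF-target cytoskeleton. With 10% of cells per group, the KO to WT median in mitotic-high cells was -0.31 for SRF-target cytoskeleton. With 10% of cells per group, the KO to WT median in mitotic-low cells was -0.21 for mitotic genes, -0.21 for S-phase genes, 0.93 for SRF-target cytoskeleton and 0.52 for early genes. With 30% of cells per group, WT had 193 genes higher and 59 genes lower with a median of 0.29 for chaperones. With 30% of cells per group, KO had 314 genes higher and 247 genes lower with medians of 0.13 for S-phase genes, -1.13 for SRF-target cytoskeleton and -0.72 for early genes. With 30% of cells per group, the KO minus WT difference was 0.21 for pluripotency genes and -0.70 for SRF-target cytoskeleton. With 30% of cells per group, the KO to WT median in mitotic-high cells was -0.53 for SRF-target cytoskeleton. With 30% of cells per group, the KO to WT median in mitotic-low cells was 0.0725 for S-phase genes (sign changed), 0.13 for SRF-target cytoskeleton and -0.0702 for early genes (sign changed). Against all other cells, WT had 174 genes higher and 24 genes lower with medians of 0.32 for mitotic genes, -0.0275 for SRF-target cytoskeleton and 0.32 for chaperones. Against all other cells, KO had 154 genes higher and 82 genes lower with medians of 0.29 for mitotic genes, -0.00932 for S-phase genes (sign changed), 0.0457 for pluripotency genes, -0.20 for SRF-target cytoskeleton and -0.084 for early genes. Against all other cells, the KO minus WT difference was -0.026 for S-phase genes (sign changed), 0.14 for pluripotency genes, -0.10 for SRF-target cytoskeleton and -0.0082 for early genes. Against all other cells, the KO to WT median in mitotic-low cells was 0.11 for S-phase genes (sign changed), -0.0031 for pluripotency genes, -0.0212 for SRF-target cytoskeleton (sign changed) and -0.25 for early genes (sign changed). At a minimum of 10000 UMIs, WT had a median of -0.24 for SRF-target cytoskeleton. At a minimum of 10000 UMIs, the KO minus WT difference was -0.79 for SRF-target cytoskeleton and -0.33 for early genes. At a minimum of 10000 UMIs, the KO to WT median in mitotic-low cells was 0.26 for SRF-target cytoskeleton. At 20000 UMIs or more, KO had a median of -1.43 for SRF-target cytoskeleton. Without fibroblast-marker cells (5 UMIs or more), WT had 69 genes lower with a median of 0.0929 for SRF-target cytoskeleton (sign changed). Without fibroblast-marker cells (5 UMIs or more), KO had 109 genes lower with medians of 0.52 for mitotic genes, 0.0247 for S-phase genes, 0.11 for pluripotency genes, 0.17 for SRF-target cytoskeleton (sign changed) and -0.0987 for early genes. Without fibroblast-marker cells (5 UMIs or more), the KO minus WT difference was 0.0111 for S-phase genes, 0.26 for pluripotency genes, 0.033 for SRF-target cytoskeleton (sign changed) and 0.14 for early genes (sign changed). Without fibroblast-marker cells (5 UMIs or more), the KO to WT median in mitotic-low cells was 0.11 for S-phase genes (sign changed), -0.13 for pluripotency genes, -0.31 for SRF-target cytoskeleton (sign changed) and -0.32 for early genes (sign changed). With members chosen on other UMIs, WT had 233 genes lower with a median of -0.52 for early genes. With members chosen on other UMIs, KO had medians of -1.17 for SRF-target cytoskeleton and -1.04 for early genes. With members chosen on other UMIs, the KO minus WT difference was 0.26 for pluripotency genes and -0.23 for early genes. With members chosen on other UMIs, the KO to WT median in mitotic-low cells was 0.34 for SRF-target cytoskeleton. Under median-of-ratios scaling, WT had 239 genes higher and 195 genes lower. Under median-of-ratios scaling, KO had 315 genes higher with medians of 0.52 for mitotic genes, 0.13 for S-phase genes, 0.17 for pluripotency genes, -1.41 for SRF-target cytoskeleton, -0.95 for early genes and 0.16 for chaperones. With cells weighted alike, KO had a median of -1.27 for early genes. With cells weighted alike, the KO minus WT difference was -0.79 for SRF-target cytoskeleton. Counting genes from 1 CPM, WT had 1433 genes higher and 1024 genes lower. Counting genes from 1 CPM, KO had 1621 genes higher and 1807 genes lower with medians of -1.71 for SRF-target cytoskeleton and -1.05 for early genes. Counting genes from 1 CPM, the KO to WT median in mitotic-high cells was 0.0862 for early genes (sign changed). Counting genes from 50 CPM, WT had 97 genes higher and 14 genes lower with a median of 0.0861 for SRF-target cytoskeleton (sign changed). Counting genes from 50 CPM, KO had 85 genes higher and 65 genes lower with medians of -0.68 for SRF-target cytoskeleton and -0.59 for early genes. Counting genes from 50 CPM, the KO to WT median in mitotic-high cells was -0.0748 for SRF-target cytoskeleton. Counting genes from 50 CPM, the KO to WT median in mitotic-low cells was -0.15 for mitotic genes and -0.0521 for early genes (sign changed). With Ccnb1 left out of the score, WT had a median of 0.30 for chaperones. With Ccnb1 left out of the score, the KO minus WT difference was 0.26 for pluripotency genes. With Ccnb1 left out of the score, the KO to WT median in mitotic-high cells was -0.62 for SRF-target cytoskeleton. With Ccnb1 left out of the score, the KO to WT median in mitotic-low cells was 0.30 for SRF-target cytoskeleton. Scoring on Ccnb1, Cdc20, Plk1 and Aurka alone, WT had medians of 0.33 for mitotic genes and 0.54 for chaperones. Scoring on Ccnb1, Cdc20, Plk1 and Aurka alone, KO had a median of 0.45 for chaperones. Scoring on Ccnb1, Cdc20, Plk1 and Aurka alone, the KO minus WT difference was 0.0661 for pluripotency genes. Scoring on Ccnb1, Cdc20, Plk1 and Aurka alone, the KO to WT median in mitotic-low cells was -0.10 for pluripotency genes and 0.28 for SRF-target cytoskeleton. Leaving out chromosome 8-raised cells, KO had 1109 genes higher and 834 genes lower with medians of 0.75 for mitotic genes, 0.37 for S-phase genes, 0.39 for pluripotency genes, -2.73 for SRF-target cytoskeleton, -1.42 for early genes and 0.40 for chaperones. Leaving out chromosome 8-raised cells, the KO minus WT difference was 0.16 for mitotic genes, 0.47 for pluripotency genes, -1.43 for SRF-target cytoskeleton and -0.70 for early genes. Leaving out chromosome 8-raised cells, the KO to WT median in mitotic-high cells was -0.48 for early genes. Leaving out chromosome 8-raised cells, the KO to WT median in mitotic-low cells was -0.14 for S-phase genes, 1.2 for SRF-target cytoskeleton and -0.24 for chaperones. Leaving out the highest 5% of UMIs, KO had a median of -1.11 for early genes. Leaving out the highest 5% of UMIs, the KO minus WT difference was 0.48 for pluripotency genes and -1.05 for SRF-target cytoskeleton. Dropping only cells with 20 or more fibroblast-marker UMIs, WT had 77 genes lower with a median of 0.0797 for SRF-target cytoskeleton (sign changed). Dropping only cells with 20 or more fibroblast-marker UMIs, KO had 100 genes lower with medians of 0.52 for mitotic genes, 0.022 for S-phase genes, 0.10 for pluripotency genes, 0.14 for SRF-target cytoskeleton (sign changed) and -0.0878 for early genes. Dropping only cells with 20 or more fibroblast-marker UMIs, the KO minus WT difference was -0.00602 for S-phase genes (sign changed), 0.24 for pluripotency genes, 0.0433 for SRF-target cytoskeleton (sign changed) and 0.18 for early genes (sign changed). Dropping only cells with 20 or more fibroblast-marker UMIs, the KO to WT median in mitotic-low cells was 0.12 for S-phase genes (sign changed), -0.14 for pluripotency genes, -0.34 for SRF-target cytoskeleton (sign changed) and -0.36 for early genes (sign changed). Without fibroblast-marker cells at 20000 UMIs, WT had 68 genes lower with medians of 0.14 for SRF-target cytoskeleton (sign changed) and -0.14 for early genes. Without fibroblast-marker cells at 20000 UMIs, KO had 136 genes lower with medians of 0.52 for mitotic genes, 0.0385 for S-phase genes, 0.12 for pluripotency genes, 0.27 for SRF-target cytoskeleton (sign changed) and -0.14 for early genes. Without fibroblast-marker cells at 20000 UMIs, the KO minus WT difference was -0.00819 for S-phase genes (sign changed), 0.20 for pluripotency genes, 0.0696 for SRF-target cytoskeleton (sign changed) and 0.0232 for early genes (sign changed). Without fibroblast-marker cells at 20000 UMIs, the KO to WT median in mitotic-low cells was -0.12 for pluripotency genes, -0.35 for SRF-target cytoskeleton (sign changed) and -0.30 for early genes (sign changed). Without fibroblast-marker cells under median-of-ratios scaling, WT had 225 genes higher with medians of -0.10 for S-phase genes (sign changed), -0.24 for pluripotency genes, -0.0088 for SRF-target cytoskeleton and 0.30 for chaperones. Without fibroblast-marker cells under median-of-ratios scaling, KO had 275 genes higher and 187 genes lower with medians of 0.41 for mitotic genes, -0.0776 for S-phase genes (sign changed), 0.00719 for pluripotency genes, 0.0699 for SRF-target cytoskeleton (sign changed), -0.20 for early genes and 0.13 for chaperones. Without fibroblast-marker cells under median-of-ratios scaling, the KO minus WT difference was 0.0104 for S-phase genes, 0.26 for pluripotency genes, 0.0324 for SRF-target cytoskeleton (sign changed) and 0.14 for early genes (sign changed). Without fibroblast-marker cells under median-of-ratios scaling, the KO to WT median in mitotic-high cells was -0.39 for early genes. Without fibroblast-marker cells under median-of-ratios scaling, the KO to WT median in mitotic-low cells was -0.36 for SRF-target cytoskeleton (sign changed) and -0.37 for early genes (sign changed). With totals lacking mitochondrial and ribosomal genes, no value passed these limits, but the KO split turned from 533 higher and 413 lower to 415 and 455, and the WT split went from 403 and 126 to 278 and 168.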
